A study of Mus musculus with 12 samples.

Results

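The regions described here are the stretches of H3K4me3 that lay away from protein-coding genes in the mouse genome. Peaks of the 4 H3K4me3 libraries on chromosomes 1 to 19 were merged wherever they shared 1 bp, which gave 17250 regions. Of these, 2060 lay more than 5 kb outside the span of every protein-coding gene of the mm10 RefSeq annotation, and they are called intergenic regions below. The other 15190 served for comparison: 11143 lay within 1 kb of a gene end, 3658 inside gene bodies and 389 in the 5 kb flanks. The libraries came from mouse embryonic fibroblasts (MEFs), connective tissue cells cultured from embryos, that were wild type (WT) or carried the genotype label fbxw7 KO (KO below). Cut & Run was done with antibodies against MLL4, H3K4me1 and H3K4me3, in 2 libraries per antibody and genotype, 12 in all. In Cut & Run an antibody brings a nuclease to a chromatin protein, and the released DNA fragments are sequenced. The labels name no allele, deleted exon, age or treatment. They leave unsaid whether a group's 2 libraries stem from separate cultures or embryos, so each p compares libraries that may be technical replicates. With 2 libraries per group, the exact permutation test cannot give less than 0.333, whatever the spread within groups.

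H3K4me3 is the trimethylated form of lysine 4 of histone H3 and is concentrated at active promoters, those of RNA polymerase II genes above all, and also beside active tRNA genes. The monomethylated form, H3K4me1, is spread more widely and is common at enhancers, where MLL4 (the product of Kmt2d) is one of the enzymes that deposit it. H3K4me3 far from protein-coding genes is found at promoters of long non-coding RNAs (lncRNAs), at tRNA genes and at strong enhancers. Fbxw7 picks the proteins that an SCF ubiquitin ligase marks for degradation.

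The H3K4me3 libraries held 11319701 and 6185767 filtered fragments in WT and 5519477 and 5938102 in KO, so WT replicate 1 was the deepest. At a fixed q cutoff deeper libraries pass more of the faint sites, and a missing peak means only that a site did not pass there. Among defining genes of fibroblasts, 13 of 15 (Col1a1, Col3a1, Vim, Thy1 and others) carried H3K4me3 within 1 kb of either end in some library, 5 of them in all 4. Pdgfra and Prrx1 had none. Of 19 markers of blood, endothelial, epithelial, neural, muscle and pluripotent cells, 5 had a peak (Spi1, Kdr, Epcam, Map2 and Tubb3) and none had one in all 4 libraries.

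Start windows of lncRNA genes under intergenic regions are shown first, because the results turn on the contrast between starts with H3K4me3 in all 4 libraries and starts with it in WT alone. The windows are RefSeq promoter sequences on GRCm38.p6 (the coordinates of mm10), 250 bases before to 50 after the start, on the strand of the gene, with each CpG dinucleotide in capitals. Snhg5 (chr9:88522848-88523147, minus strand), Snhg15 (chr11:6528711-6529010, minus) and Oip5os1 (chr2:119594046-119594345, plus) had H3K4me3 in all 4 libraries and hold 36, 29 and 15 CpGs. Lncpint (chr6:31218425-31218724, minus) and Mir100hg (chr9:41376276-41376575, plus) had it in both WT and neither KO library and hold 18 and 15. This holds for the printed Mir100hg window only. Another start window of the gene (chr9:41474643-41474942, 4 CpGs) lay under a region with a peak in both WT libraries and KO replicate 2.
Snhg5: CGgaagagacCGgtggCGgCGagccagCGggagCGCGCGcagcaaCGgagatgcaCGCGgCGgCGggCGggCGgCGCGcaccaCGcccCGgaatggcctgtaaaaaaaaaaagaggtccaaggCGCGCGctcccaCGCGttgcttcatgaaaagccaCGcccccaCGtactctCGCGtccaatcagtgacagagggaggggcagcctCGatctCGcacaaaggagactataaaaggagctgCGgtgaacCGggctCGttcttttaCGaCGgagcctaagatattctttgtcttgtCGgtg
Snhg15: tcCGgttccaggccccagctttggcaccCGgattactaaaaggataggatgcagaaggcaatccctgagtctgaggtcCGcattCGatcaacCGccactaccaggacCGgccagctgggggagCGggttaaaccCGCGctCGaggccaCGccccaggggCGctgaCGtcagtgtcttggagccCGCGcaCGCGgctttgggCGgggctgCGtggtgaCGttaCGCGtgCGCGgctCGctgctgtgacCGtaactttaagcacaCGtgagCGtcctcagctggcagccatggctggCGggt
Oip5os1: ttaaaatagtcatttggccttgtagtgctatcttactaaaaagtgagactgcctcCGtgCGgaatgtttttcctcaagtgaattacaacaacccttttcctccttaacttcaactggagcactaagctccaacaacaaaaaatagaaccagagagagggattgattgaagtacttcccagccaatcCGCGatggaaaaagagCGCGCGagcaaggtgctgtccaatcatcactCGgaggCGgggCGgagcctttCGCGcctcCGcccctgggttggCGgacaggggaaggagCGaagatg
Lncpint: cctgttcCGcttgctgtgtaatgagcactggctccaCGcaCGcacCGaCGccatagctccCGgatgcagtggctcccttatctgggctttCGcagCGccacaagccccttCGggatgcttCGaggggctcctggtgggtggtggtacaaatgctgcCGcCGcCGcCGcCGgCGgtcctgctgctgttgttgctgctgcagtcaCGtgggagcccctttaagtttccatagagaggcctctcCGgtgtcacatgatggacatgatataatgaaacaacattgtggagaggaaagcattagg
Mir100hg: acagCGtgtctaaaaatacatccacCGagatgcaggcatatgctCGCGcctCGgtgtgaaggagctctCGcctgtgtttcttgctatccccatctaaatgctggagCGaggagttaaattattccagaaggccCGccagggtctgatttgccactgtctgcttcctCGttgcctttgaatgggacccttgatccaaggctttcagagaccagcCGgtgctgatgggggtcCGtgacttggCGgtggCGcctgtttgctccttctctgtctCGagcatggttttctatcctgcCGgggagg

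Mature miRNAs under intergenic regions are shown next, with the seed (bases 2 to 8) in capitals. The hairpin of miR-193a lay under a region held by all 4 libraries, that of miR-129-2 under a region held by 3, and those of miR-125b-1 and miR-9-2 under regions held by both WT libraries alone. The 4 seeds differ, so these members form no family by seed.
miR-193a-3p: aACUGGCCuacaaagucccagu
miR-129-5p: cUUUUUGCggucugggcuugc
miR-125b-5p: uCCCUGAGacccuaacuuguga
miR-9-5p: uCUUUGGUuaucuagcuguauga

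Intergenic H3K4me3 was called far more often in WT than in KO. WT replicate 1 held 1904 of the 2060 regions and WT replicate 2 held 1289, against 324 and 359 in the KO libraries. Both WT values were above both KO values. The mean was 1596.5 ± 435 regions in WT and 341.5 ± 24.7 in KO (SD, n = 2 each), 4.67-fold fewer or −2.22 on the log2 scale (exact permutation test, two-sided, p = 0.333, the smallest that 2 against 2 can give). The other H3K4me3 regions differed by −0.63 on the same scale, with 14079.5 ± 1156 regions in WT and 9120 ± 429 in KO (p = 0.333, same exact test). With p limited to 0.333, none of the genotype differences below can pass 0.05.

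As a share of each library's peaks, intergenic sites made up 11.3% and 8.56% in WT and 3.49% and 3.55% in KO, a difference of −6.41 percentage points (exact permutation p = 0.333). The libraries with more peaks had the larger intergenic share. The full lists ran to 16877 and 15552 (WT) against 10186 and 11038 (KO) peaks. When each list was limited to its 10186 best-ranked peaks, 3.99% and 4.23% were intergenic in WT and 3.49% and 3.27% in KO. The share then differed by −0.731 points and the number of regions held by −0.38 on the log2 scale, with both WT libraries still above both KO libraries (exact permutation p = 0.333 for each). Limited to peaks with −log10 q of 10 or more, the number of regions held differed by −4.16 on the log2 scale and the share by −3.83 points.

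**Figure D1:**
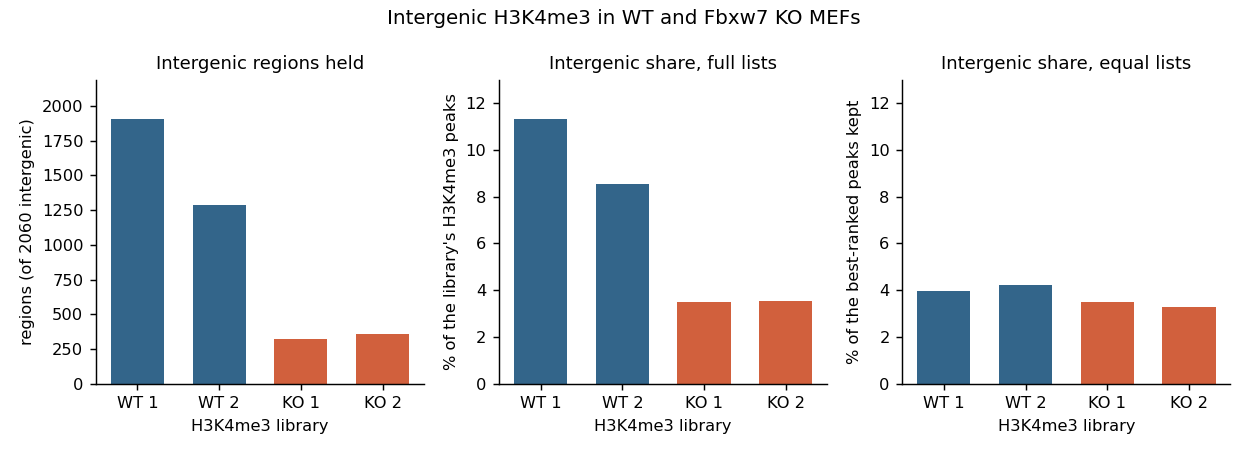
Intergenic H3K4me3 in each library: regions held (left), share of all the library's H3K4me3 peaks (middle), and the same share among the 10186 best-ranked peaks of each library (right), with WT in blue and KO in orange. The WT bars stand at 11.3% and 8.56% against 3.49% and 3.55% with full lists, and at 3.99% and 4.23% against 3.49% and 3.27% with equal lists.

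Intergenic peaks were short and ranked low by q within every library. Their median length was 603 and 534 bp in WT and 407 and 444.5 bp in KO, where the other peaks measured 1301, 1112, 548 and 590.5 bp in the same order. The difference between genotypes was −0.42 on the log2 scale for intergenic peaks and −1.08 for the others (exact permutation p = 0.333 for each), and −1.11 for intergenic peaks with lists of equal length. Ranked by −log10 q within its library, the median intergenic peak stood at percentile 20.6 and 21.5 in WT and 38.8 and 36.7 in KO, while other peaks stood at 50.3 to 54.3. Intergenic peaks ranked lower in 4 of 4 libraries, with a mean difference of −22.6 percentile points (range −33.7 to −11.6; exact sign-flip permutation over 4 libraries, p = 0.125, the smallest possible). A −log10 q of 10 or more was reached by 56.7% and 44.8% of intergenic peaks in WT and by 13.0% and 12.8% in KO, a difference of −37.9 points. The other peaks stood at 85.9% and 77.3% in WT and 14.8% and 20.99% in KO, a larger difference of −63.7 points (exact permutation p = 0.333 for each). These q values were not adjusted for depth. By fold enrichment over local background, the median intergenic peak stood below the median of the other peaks in WT (6.45 against 7.05, and 6.27 against 6.53) but not in KO (5.58 against 5.55, and 5.73 against 5.59). The peaks together covered 1391 and 883 kb in WT and 175 and 202 kb in KO.

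Few intergenic regions were called in every library. Among the intergenic regions, 221 (10.7%) had a peak in all 4 libraries, against 47.5% of all 17250 regions. WT-only regions, with a peak in both WT and neither KO library, numbered 766 (37.2%), against 21.3% of all regions. A further 726 (35.2%) were held by WT replicate 1 alone, the deepest library, against 14.7% of all. KO-only regions, with a peak in both KO and neither WT library, numbered 5 (0.243%), against 0.0522% of all. At gene ends 62.6% of regions were held by all 4 libraries and 15.3% were WT-only, and gene bodies lay between, at 26.1% and 29.3%. A peak in at least 1 WT library was present at 2033 intergenic regions and a peak in at least 1 KO library at 447. With a library left out, the classes were scored on the libraries that remained and are looser. The WT-only count was 1495 without WT replicate 2, where it takes in regions of WT replicate 1 alone, and 85 of 607 with lists of equal length. The KO-only count was 9 to 17 when 1 library was left out (11 without WT replicate 1, 9 without WT replicate 2, 15 without KO replicate 1 and 17 without KO replicate 2), and 26 with lists of equal length. The count held by all 4 libraries was 66 when a peak had to cover 50% of the region and 20 at −log10 q of 10 or more. With lists of equal length it was 175 of 607, a larger share than with full lists.

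**Figure D2:**
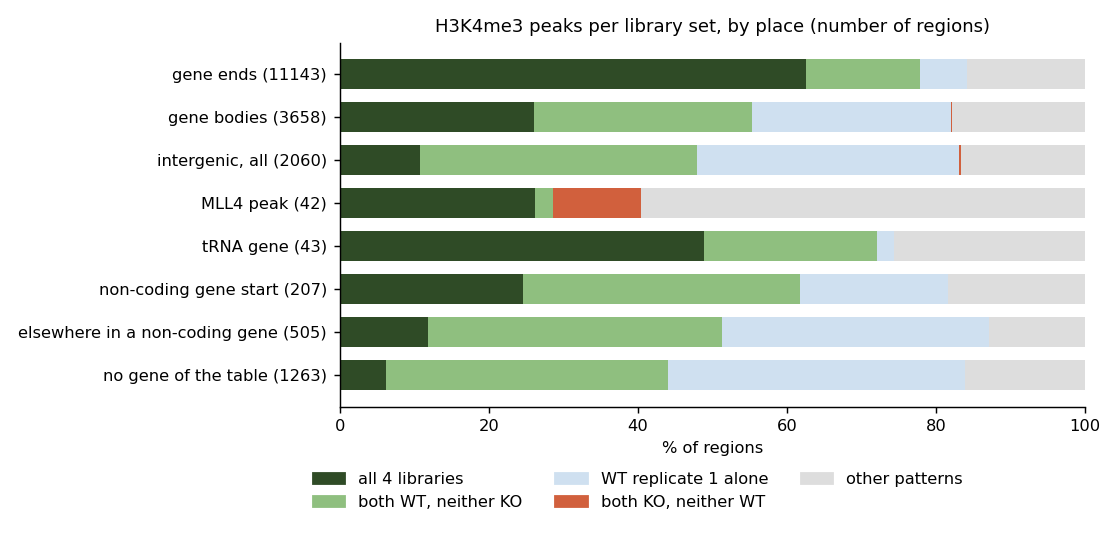
Share of H3K4me3 regions (horizontal axis, %) by the set of libraries with a peak, for gene ends, gene bodies and intergenic regions, and below them for the 5 classes of intergenic regions, with the number of regions in brackets. Dark green (all 4 libraries) covers 62.6% of gene ends and 10.7% of intergenic regions, and 48.8% of those at tRNA genes.

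Regions were also compared within classes of WT strength. The 14190 regions with a peak in both WT libraries, 1160 of them intergenic, were divided by their −log10 q in WT replicate 2 into 4 classes of nearly equal size. In the lowest class 2.14% of intergenic and 7.54% of other regions had a peak in both KO libraries. In the second class the shares were 22.9% and 52.6%, in the third 55.6% and 81.3%, and in the highest 79.8% and 94.4%. In each class the intergenic regions were less often held by both KO libraries. The share with no KO peak was 88.9%, 52.1%, 22.6% and 4.76% of intergenic regions from the lowest to the highest class, against 72.8%, 20.2%, 3.84% and 0.577% of the others. These are descriptions of 4 libraries, with no test, and the classes equalise neither peak length nor strength in full. Within each class the intergenic regions had the lower median −log10 q (6.51 against 7.40, 14.6 against 15.6, 21.8 against 22.5 and 31.5 against 31.9).

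**Figure D3:**
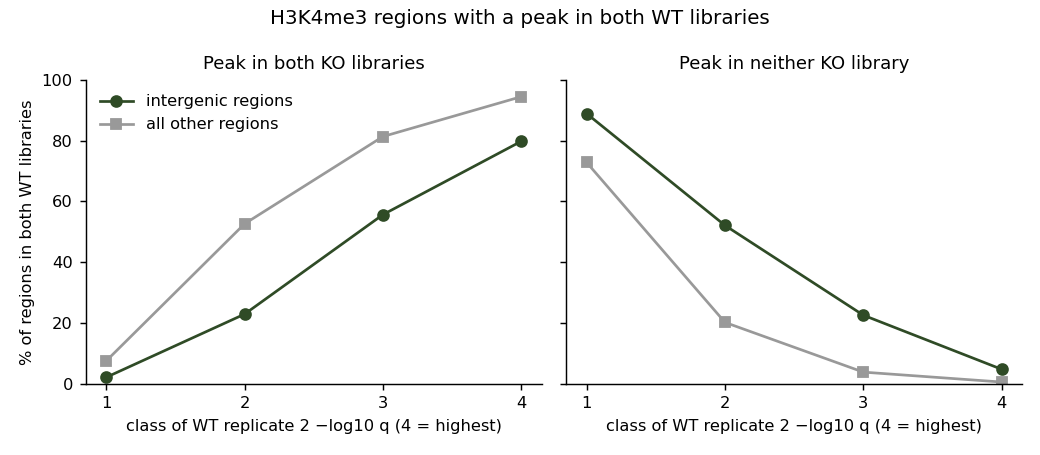
Share (%) of H3K4me3 regions with a peak in both WT libraries that also had a peak in both KO libraries (left) or in neither (right), by class of −log10 q in WT replicate 2 (1 lowest, 4 highest). The intergenic line runs from 2.14% to 79.8% on the left and stays under the line of other regions, which runs from 7.54% to 94.4%.

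Annotation divided the intergenic regions into 5 classes, each region counted in the first that applied: an MLL4 peak (42 regions), a tRNA gene (43), the start window of a non-coding gene (207), the rest of a non-coding gene or pseudogene (505), and none of these (1263). All 4 libraries held 48.8% of the regions at tRNA genes, 26.2% of those with an MLL4 peak, 24.6% of those at non-coding starts, 11.9% of those elsewhere in a non-coding gene and 6.18% of those with no gene. WT-only regions made up 23.3%, 2.38%, 37.2%, 39.4% and 37.9% of the same classes. The start class counts only regions over a RefSeq promoter window. Regions that reach an end of a gene span without such a window fell in the rest of the gene. Those at Pvt1, Snhg4 and Carmn did so, each held by all 4 libraries, so that class is not confined to gene interiors. Regions in all 4 libraries were also longer, with a median of 1339 bp against 740.5 bp for WT-only regions and 391 bp for those of WT replicate 1 alone. No intergenic region overlapped a promoter window of a protein-coding gene.

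Known non-coding genes with intergenic H3K4me3 in all 4 libraries included host genes of small nucleolar RNAs (Snhg genes). A list of 72 such genes had 63 in the annotation, 40 with an H3K4me3 peak in at least 1 library and 22 with an intergenic region. Of the 22, 10 had a region in all 4 libraries, and 5 of these 10 were the host genes Snhg4, Snhg5, Snhg15, Snhg17 and Snhg20. The list itself is rich in such genes, with 14 of its 63. The Snhg5 peak had a pileup (the unscaled number of fragments at the summit) of 124 and 46 in WT against 21 and 19 in KO, and that of Snhg17 had 159 and 73 in WT and 29 and 18 in KO. Oip5os1, also called Cyrano, had 116 and 77 in WT and 31 and 26 in KO. Carmn, the host of miR-143 and miR-145, had 140 and 71 against 20 and 26, and Pvt1, the lncRNA beside Myc, had 145 and 66 against 24 and 24. Rmst, known from neural progenitors, had 81 and 35 against 13 and 15. In each of these genes WT replicate 1, the deepest library, had the highest pileup. Over all intergenic peaks the median pileup was 21 and 16 in WT and 13 and 13 in KO. Each median is over the library's own peaks, 1908 and 1331 in WT and 355 and 392 in KO, so these medians do not compare the same sites.

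Malat1 and Neat1, abundant nuclear lncRNAs of which Neat1 builds paraspeckles, had H3K4me3 in WT alone. Malat1 (chr19:5795690-5802672) held 3 WT-only regions, with −log10 q of 12.5 and 5.19 in the 2 WT libraries at the strongest. Neat1 (chr19:5824708-5845480) held 2, the stronger at 25.2 and 5.38. Lncpint, a target of p53, held 3 WT-only regions, 1 of them 3104 bp long and among the 3 longest intergenic regions. Norad, which binds Pumilio proteins, held 1 WT-only region and 1 of WT replicate 1 alone. Mir100hg, the host of miR-100 and miR-125b-1, held 7 regions, 3 of them WT-only. Its region at chr9:41474891-41475790, at another start window, had a peak in both WT libraries and KO replicate 2. Meg3, an imprinted lncRNA, had a region in both WT libraries and KO replicate 1, and Trp53cor1, also called lincRNA-p21 and placed 11.9 kb from Cdkn1a, had one in both WT libraries and KO replicate 2. Dleu2, Mir99ahg, Airn, Miat and Mir124a-1hg also held regions, none of them in all 4 libraries, and Mir193a is described with the miRNAs. H19, Hotair, Mir17hg and Mir34a lay beyond 5 kb of protein-coding genes and had no H3K4me3 peak in any library.

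Of 260 miRNA genes wholly outside the 5 kb flanks, 12 lay under an intergenic region. At miR-193a the pileup was 109 and 50 in WT against 18 and 22 in KO, and all 4 libraries passed. At miR-125b-1, inside Mir100hg, it was 117 and 61 in WT with no peak in KO. At miR-9-2, a miRNA known from neural cells, it was 26 and 10 in WT with no peak in KO. The region at miR-129-2 passed in both WT libraries (71 and 31) and in KO replicate 2 (13). Of all 12 miRNA genes, 5 lay under a region held by all 4 libraries (Mir193a, Mir760, Mir713, Mir6516 and Mir1949) and 4 under a WT-only region. The 4 whose sequences are printed are therefore no sample of the 12.

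Regions at tRNA genes, which RNA polymerase III transcribes, were the annotated class of regions most often held by all 4 libraries. Of 391 tRNA genes on these chromosomes, 269 lay in intergenic space and 56 (20.8%) of those lay under 43 intergenic regions. For comparison, 259 of 6493 intergenic lncRNA start windows (3.99%), 4 of 748 snoRNA genes (0.535%), 54 of 6209 pseudogenes (0.870%) and 7 of 46 genes of the miscellaneous RNA type (15.2%) lay under one. The tRNA genes themselves lay under a single library's H3K4me3 peak, in or out of intergenic regions, in 21.6% and 13.4% of cases in WT. In KO the shares were 0.372% and 2.23%. For the miscellaneous RNA type they were 15.2% in each WT library and 6.52% and 8.70% in KO. WT replicate 1 held 43 of the 43 regions, WT replicate 2 held 42, and the KO libraries held 25 and 28. The strongest in all 4 libraries by KO pileup was at n-TLcag5 (chr8:94702666-94703651), with 116, 36, 21 and 27 fragments in WT replicates 1 and 2 and KO replicates 1 and 2. The n-TEttc6 region (chr14:76152178-76153428) had 103, 62, 16 and 23. H3K4me1 was scarce over the 43 regions, with a peak over 16.3% and 11.6% of them in WT and 14.0% and 9.30% in KO. None of the 10 WT-only regions of the class had one. Shares at gene ends were similarly low, at 15.7% and 13.0% in WT and 17.2% and 13.8% in KO.

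The peaks at tRNA genes also differed in length and in how often they covered the gene. In WT, 97.7% and 71.7% of the peaks in these regions covered a tRNA gene, and in KO 3.57% and 19.4% did. Most KO peaks did not reach the gene, with a median gap of 137 and 107 bp from the peak edge to the nearest tRNA gene. Their median length was 383 and 402 bp, against 1318 and 987.5 bp in WT. The summits lay at a median of 271 and 265.5 bp from the gene in WT and 387 and 313 bp in KO. Their interquartile ranges overlapped, at 188.5 to 384.5 and 211.5 to 401 bp in WT and 272 to 496.5 and 192 to 449 bp in KO. A summit fell inside a tRNA gene in 0, 1, 1 and 2 cases. Chromosome 13 held 16 of the 43 tRNA-gene regions. It also held 91 of the 269 intergenic tRNA genes, and 20 of the 56 that lay under a region. Of all chromosomes, it had the highest intergenic share of its H3K4me3 regions (177 of 815, 21.7%). The longest run of intergenic regions with gaps up to 50 kb, chr13:21159066-21327775, had 15 regions over 169 kb beside Trim27 and Gpx5, 7 of them at tRNA genes. The libraries held 15, 11, 7 and 6 of the 15, and H3K4me1 overlapped 1.

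Start windows of non-coding genes under intergenic regions were rich in CpG when all 4 libraries held the region. The median was 5 CpGs per 100 bases over 65 windows under all-4 regions, 3.67 over 99 under WT-only regions and 2.33 over 50 under regions of WT replicate 1 alone. It was 1 over 6234 lncRNA windows beyond 5 kb with no H3K4me3 region and 4.67 over 20085 protein-coding windows. A GC box (CCGCCC on either strand) occurred in 52.3%, 32.3% and 18% of the 3 sets of marked windows, in 7.36% of the unmarked ones and in 36.0% of all 31396 windows. The AP-1 motif (TGANTCA, either strand) occurred in 7.69%, 15.2% and 16% of the marked sets, in 10.6% of the unmarked windows and in 7.84% of all. TATAAA on either strand was found in 9.23%, 11.1% and 8% of the marked sets and 13.6% of all windows. Single windows vary around these medians. Of the windows printed above, Snhg5 and Oip5os1 hold 2 GC boxes each and Snhg15 holds 1, while Lncpint and Mir100hg hold none, but WT-only Lncpint has more CpGs (18) than Oip5os1 (15). One of the windows of Snhg17, which had H3K4me3 in all 4 libraries, has 14 CpGs and 0 GC boxes. A motif match describes these letters only. Windows of 1 gene can overlap, and the 65, 99 and 50 windows belong to 57, 84 and 43 genes.

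H3K4me1 covered intergenic H3K4me3 more often than H3K4me3 elsewhere in each of its 4 libraries. An H3K4me1 peak overlapped 45.0% and 40.9% of the intergenic regions in WT, and in KO 44.5% and 41.8%. The 2 genotypes overlapped, and the KO mean differed from the WT mean by 0.243 percentage points (exact permutation p = 1.0). The other H3K4me3 regions were overlapped in 19.8%, 17.3%, 21.5% and 17.5% of cases, so the intergenic share was higher in 4 of 4 libraries, by 24.0 ± 0.923 points (SD, n = 4; exact sign-flip permutation p = 0.125, the smallest possible). With a fixed window of 1 kb around each centre, which gives every region the same length, the difference was 30.4 points, and with H3K4me3 lists of equal length it was 11.6. Against gene-body regions it was 12.5 points (4 of 4 libraries, same exact test, p = 0.125). H3K4me1 in all 4 libraries covered 518 intergenic regions (25.1%), against 8.32% of all H3K4me3 regions, and at least 1 library covered 1279 (62.1%), against 40.5%.

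At sites where the H3K4me3 call was confined to the WT libraries, H3K4me1 calls were found in both genotypes. The 766 WT-only regions had H3K4me1 over 44.5% and 40.1% in WT and 43.5% and 39.2% in KO, a difference of −0.979 points (exact permutation p = 0.667). Among them, 22 (2.87%) had H3K4me1 in both WT and neither KO library and 14 (1.83%) in the reverse, where the shares over all H3K4me3 regions were 1.90% and 2.20%. H3K4me1 in all 4 libraries covered 170 of the WT-only regions (22.2%). The 221 regions held by all 4 H3K4me3 libraries had H3K4me1 less often, at 26.2% and 22.6% in WT and 26.7% and 23.1% in KO. WT-only regions exceeded them in 4 of 4 libraries, by 17.1 points, or 23.7 points in the fixed 1 kb window (exact sign-flip permutation p = 0.125 for each). The regions of WT replicate 1 alone had the most, at 51.2% to 55.2%. Regions with no annotated gene stood at 45.2% to 49.1% and those at non-coding starts at 28.0% to 33.8%.

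**Figure D4:**
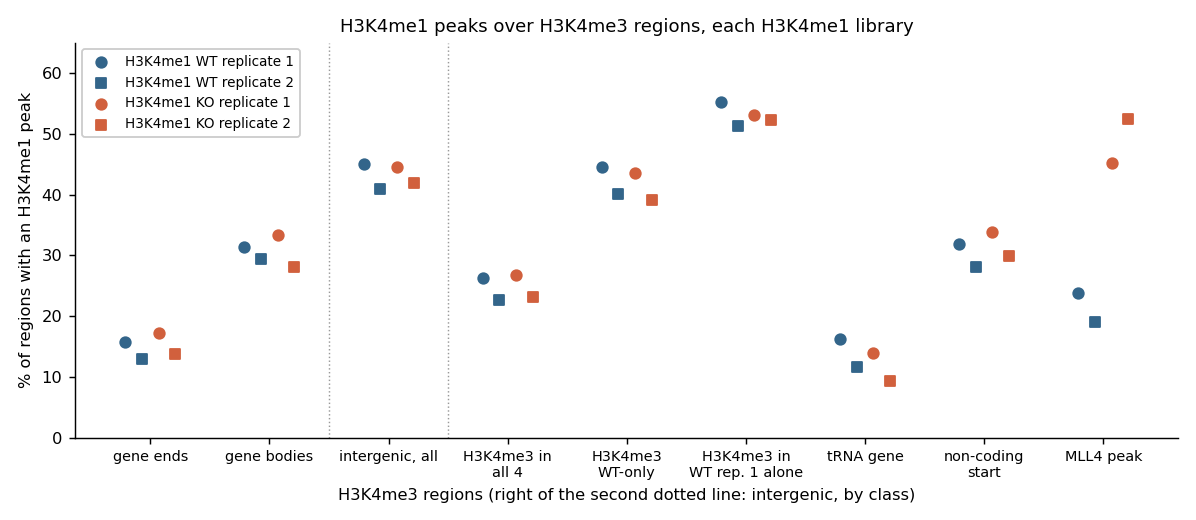
Share (%) of H3K4me3 regions overlapped by an H3K4me1 peak, each point 1 H3K4me1 library (WT blue, KO orange, circle for replicate 1, square for replicate 2). Intergenic regions stand at 40.9% to 45.0% against 13.0% to 17.2% at gene ends, and the points of the 2 genotypes lie together in every class but the 42 regions with an MLL4 peak, where WT stands at 23.8% and 19.05% and KO at 45.2% and 52.4%.

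MLL4 peaks were few, 36 to 61 per library on these chromosomes, and most fell on intergenic H3K4me3. Of 54 and 61 peaks in WT, 30 and 36 lay on an intergenic region, as did 27 of 43 and 25 of 36 in KO. In all, 42 intergenic regions (2.04%) had an MLL4 peak in at least 1 library, against 0.412% of all H3K4me3 regions and 0.191% of the other 15190. A KO library held 39 of them, compared with 20.2% of the regions without MLL4, and 11 were held by all 4 libraries, 5 were KO-only and 1 was WT-only. All 5 KO-only intergenic regions carried an MLL4 peak, so the KO-only count was 0 without this class. Each of the 5 had it in at least 1 WT MLL4 library. At chr5:58498435-58498732 and chr2:81786711-81787134 it was in WT replicate 1 alone, with no MLL4 peak in KO. Over the 42 regions with an MLL4 peak, the H3K4me1 share was 23.8% and 19.05% in WT and 45.2% and 52.4% in KO. That is a difference of 27.4 points with no overlap between genotypes (exact permutation p = 0.333). H3K4me1 in both KO and neither WT library covered 9 of them (21.4%), against 2.20% of all H3K4me3 regions. The class was chosen after seeing the data. They lay far from genes, at a median of 249 kb, and were short, at a median of 422.5 bp.

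The strongest of these regions had peaks with every antibody. At chr14:19416915-19417350 the H3K4me3 pileup was 184 and 138 in WT against 115 and 122 in KO, and all 12 libraries had a peak. At chr2:98666322-98667305 it was 122 and 81 in WT and 112 and 121 in KO, again with peaks in all 12. Altogether 8 intergenic regions had a peak in all 12 libraries, including 2 at the start of the chromosome 9 assembly (chr9:3000365-3001199 and chr9:3020221-3020549). The KO-only region with the highest values, chr2:98662505-98662756, had H3K4me3 pileups of 114 and 135 in the KO libraries and no H3K4me3 peak in WT. It had no H3K4me1 peak in either genotype, and MLL4 peaks in all 4 MLL4 libraries. The other 4 KO-only regions had pileups of 6 to 16. On chromosome 17, 3 neighbouring regions lay in or beside Rn18s-rs5, a ribosomal RNA sequence (chr17:39843342-39848721). Peaks were called without a control library, no list of high-background regions was applied, and the part of such background in these peaks was not tested.

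Outside the MLL4 class, the 3 best-ranked regions with H3K4me3 in all 4 libraries were these. At chr5:110057239-110058403, 11.1 kb from Gm35315, it was 174 and 90 in WT and 25 and 35 in KO. At chr10:82177887-82179142, over Gm40720, it was 125 and 64 against 33 and 30, and all 4 H3K4me1 libraries had a peak. At chr16:98081262-98083012, over the lncRNA A630089N07Rik, it was 156 and 73 against 21 and 29. The best-ranked WT-only regions were chr8:18898858-18899291 (89 and 44 in WT), chr4:42766693-42767258 (83 and 44) and chr11:107012134-107012715 (83 and 42). These 3 were 434 to 582 bp long, lay in lncRNA genes and had no H3K4me1 peak in any library. No KO peak passed over any of them.

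Intergenic regions lay at a median of 28.6 kb from the nearest protein-coding gene (interquartile range 12.4 to 71.6 kb, highest 1623 kb). By distance, 380 lay at 5 to 10 kb, 414 at 10 to 20, 566 at 20 to 50, 307 at 50 to 100, 343 at 100 to 500 and 50 beyond 500 kb. The 41 regions just inside the 5 kb limit (up to 5.5 kb) were held by 40, 25, 7 and 6 of the libraries in the usual order, and the 47 just outside it (from 4.5 kb) by 43, 35, 14 and 13. WT-only regions lay at a median of 23.4 kb, all-4 regions at 27.4 kb, those of WT replicate 1 alone at 33.8 kb and tRNA-gene regions at 12.5 kb. H3K4me1 was most common at 100 to 500 kb, over 54.2%, 49.3%, 55.1% and 56.6% of regions, against 41.8%, 38.9%, 40.0% and 36.8% at 5 to 10 kb. All-4 regions made up 11.8% at 5 to 10 kb and 6.997% at 100 to 500 kb.

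**Figure D5:**
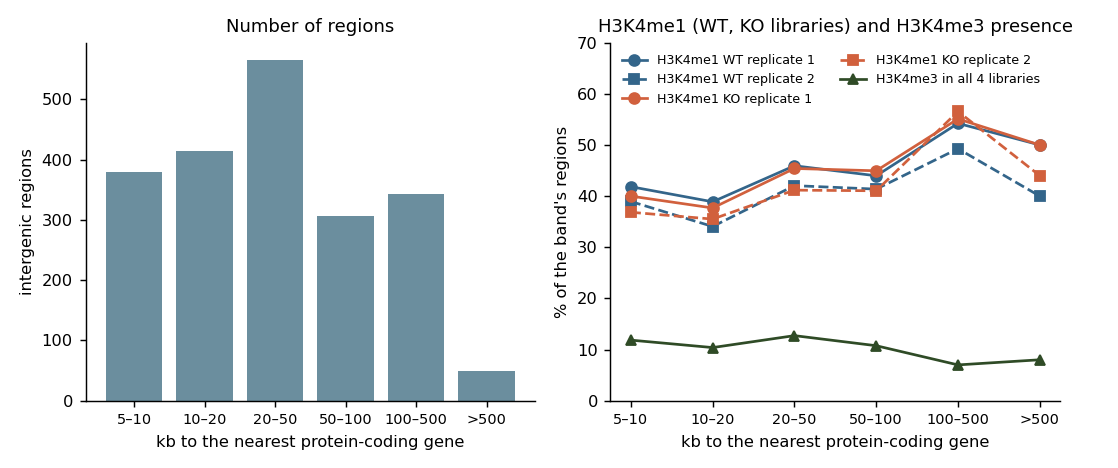
Left, number of intergenic H3K4me3 regions by distance to the nearest protein-coding gene (kb). Right, share (%) of each band's regions with an H3K4me1 peak in each H3K4me1 library and share held by all 4 H3K4me3 libraries (triangles). H3K4me1 stands at 36.8% to 41.8% in the nearest band and 49.3% to 56.6% at 100 to 500 kb.

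Genes of 4 lists that fit fibroblasts were examined as neighbours of intergenic H3K4me3. Of 30 mesenchymal transcription factor genes, 18 (60%) were the nearest protein-coding gene of at least 1 intergenic region, against 1533 of all 20665 (7.42%). The same held for 5 of 14 AP-1 and immediate-early genes, 6 of 19 matrix genes and 6 of 20 cell cycle genes. Surroundings differed in size: mesenchymal factor genes had a median of 183 kb of intergenic space nearest to them, against 9.61 kb for all genes. Per megabase of that space there were 3.39 regions by mesenchymal factors, 6.80 by AP-1 genes, 4.95 by matrix genes and 3.48 by cell cycle genes, against 1.58 over all genes, so the mesenchymal list had the lowest density of the 4. The lists are small and no test was made. Hand2, a factor of limb and heart mesenchyme, had 7 regions at 7.77 to 341 kb, held by 7, 5, 1 and 1 of the libraries. Col1a2, a collagen I chain, had 5 at 15.2 to 88.0 kb, of which 3 were WT-only and none was held by a KO library. Myc had 5 at 47.5 to 338 kb, 1 of them, in Pvt1, in all 4 libraries. Fos, an AP-1 subunit, had 2, with 1 in all 4 libraries, and Gli3, a Hedgehog effector, had 4, all held by WT replicate 1 alone. Of the 36 regions by mesenchymal factors, 13 were WT-only (36.1%) and 27 had H3K4me1 in at least 1 library (75%), close to 37.2% and above 62.1% for all intergenic regions. Chd2, which encodes a chromatin remodeller, had the most regions of any gene, 8, with 4 WT-only.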

How the data were processed

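Each deposited file is a peak list. The authors ran MACS2 (2.1.0.20150731, per the file headers) once per library on paired-end fragments, without a control and with q limited to 0.01. Duplicates were limited to 1 fragment per position, or 2 in the H3K4me1 lists and H3K4me3 WT replicate 1, per the file headers. Per the submitters' processing notes, the build was mm10 and Bowtie2, SAMtools 1.5, bedtools, deepTools and HOMER 4.10 were also used, with no role given. For every peak the deposited columns give the fold ratio over local background, −log10 of p and of q, and the unscaled pileup signal. These served only for describing, ranking and filtering peaks.

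From these lists, regions, gene distances and overlaps (1 bp or more) were computed with Python 3.11.15, numpy 2.4.6 and pandas 2.3.3, and the functions were tested on simulated peaks. Gene spans were those of RefSeq on GRCm38.p6, with 20665 protein-coding and 26377 other genes on chromosomes 1 to 19. It gives neither strand nor exons, and a gene end is within 1 kb of either end. Genotypes were compared with exact two-sided permutation tests over 6 assignments of 4 libraries, and regions within libraries with exact sign-flip permutation tests over 4. Replicate numbers were taken only to name libraries, as same-numbered libraries did not deviate together. The labels do not say whether same-numbered libraries share a culture or batch, and this correlation cannot settle it. Named regions are the KO-only ones, the 8 best-ranked all-4 and WT-only ones, the 5 best with an MLL4 peak, the 3 longest, the 3 farthest from genes, the largest run and those at listed non-coding genes. The tRNA, miRNA and MLL4 classes and the best-ranked all-4 regions without MLL4 were chosen after seeing the data. The members and all lists were chosen with earlier results of these data known. Alternatives were other flanks, non-coding genes included, stricter or equal-length lists, other overlap rules, and each library left out.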

Additional observations from a re-analysis of the deposited data

How the results depend on the processing

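No alternative turned the direction of the genotype differences in regions held (log2, −4.16 to −0.38), intergenic share (−7.79 to −0.731 points), peak length (log2, −1.11 to −0.33) or peaks at −log10 q of 10 or more (−86.0 to −27.9 points, where −86.0 comes from equal lists, whose lowest −log10 q kept is 25.9 and 13.0 in WT, so that its direction was set by construction), nor of the higher H3K4me1 overlap (11.6 to 30.4 points) or lower rank (−26.4 to −18.9 percentile points) against other regions. None of these tests can pass 0.05. The number of regions was 1007 outside all genes, 1100 at −log10 q of 10 or more and 607 with equal lists. WT-only regions were then 350, 508 and 85, and KO-only regions 2 (−log10 q) and 26 (equal lists). All-4 regions were 66 (outside all genes), 20 (−log10 q) and 175 (equal lists). Peaks over 50% of the region left 66 all-4 regions. The median distance was 23.0 kb with a 2 kb flank, 39.7 kb with 10 kb, 24.97 kb at −log10 q of 10 or more and 23.5 kb with equal lists. Without members at an MLL4 peak, an alternative chosen after seeing the data, KO-only regions numbered 0. The H3K4me1 difference between genotypes, 0.243 points, turned to −0.680 with H3K4me1 within 1 kb, −0.237 without chromosomes 4, 10, 16 and 19, and −0.322 without members at an MLL4 peak. The cause was not tested. With 1 library left out, it ranged from −1.77 to 2.26 points, the number of regions from 1377 to 2050, WT-only regions from 837 to 1495, KO-only regions from 9 to 17, all-4 regions from 226 to 323 and the median distance from 26.2 to 28.6 kb. The classes were then scored on the libraries that remained, so all-4 there means held by each of those. With the replicate block, sign-flip p is at least 0.5, and the values were −2.20 (regions held, log2), −6.41 points (share), −0.42 (length, log2), −37.9 points (−log10 q) and 0.243 points (H3K4me1). Same-numbered libraries did not deviate together over regions held by all 4 (r = −0.0227). The cutoff limits absence: KO peaks were few and weak, and a site without one was below the caller's cutoff. WT replicate 2, with 6185767 fragments, had 15552 peaks and held 1289 intergenic regions. KO replicate 2, with 5938102 fragments, had 11038 peaks and held 359. The part of depth in the missing KO peaks was not tested.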
